A study of Arabidopsis thaliana with 8 samples.

Results

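AT1G80450 and AT5G08480 are Arabidopsis thaliana genes for proteins with a VQ motif, chosen by their change on the protoplast arrays, where both were higher with 35S:ORE1 than in WT. Each has 1 probe set in the platform's probe table, 260276_at for AT1G80450 and 250535_at for AT5G08480, so the members are 2 of the 22810 probe sets on the array. VQ proteins are small plant proteins named after a short conserved motif with valine and glutamine. Many of them bind the DNA-binding domain of WRKY transcription factors and act as their cofactors, and some are phosphorylated by MAP kinases in defence signalling. ORE1, of the NAC family of transcription factors, is a known driver of leaf senescence, a process in which several WRKY factors also act.

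The 8 Affymetrix arrays held 4 groups of 2, all of ecotype Col-0. In the first system, whole 2-week-old seedlings of the ORE1-IOE line, in which estradiol induces ORE1, received either 10 µM estradiol or 0.1% ethanol as mock treatment for 2 h. In the second, mesophyll cell protoplasts from 5-week-old plants either expressed 35S:ORE1 transiently for 6 h or were labelled wild type (WT). The 35S promoter is active in most plant cells. For the WT protoplasts the labels give no harvest time and no mock transfection, so transfection and ORE1 cannot be told apart. Nothing in the labels says that replicates came from separate plants or preparations. The p-values measure only the spread between these arrays, which may be technical.

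The values are log2 expression values on scales that differ between the systems. Seedling arrays had medians of 6.71 to 6.79. Protoplast arrays had medians of 3.35 to 3.54, and on them 39.8% to 41.6% of probe sets were no more than 0.1 above the lowest value. Levels were therefore compared only within a system. Same-numbered 35S:ORE1 and WT arrays held exactly equal values for 13500 and 11130 probe sets, of which 6099 and 4275 were above the lowest value, against 20 and 8 equal values in the same-numbered seedling arrays. Differences within each numbered pair are therefore given beside the group means. Of 9 mesophyll markers, 4 have a listed probe set. RCA and LHCB4.1 lay between 7.75 and 9.41 on the protoplast arrays, whereas LHCB4.2 (3.32 to 4.44) and PSAN (2.20 to 4.00) were low there. All 4 listed markers of other cells, EXPA7 and EXPA18 (root hairs) and FAMA and GC1 (guard cells), were no more than 0.1 above the lowest value of every protoplast array. In what follows a gene within that 0.1 is said to be at the lowest value.

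AT5G08480 was well above the lowest values with 35S:ORE1 and at the bottom of the scale in WT protoplasts. Its log2 values were 8.83 and 7.98 in 35S:ORE1 protoplasts, against 2.19 and 2.18 in WT protoplasts, which are the lowest values of those arrays. The groups did not overlap, as for 10.8% of tested probe sets in this direction. The means were 8.41 ± 0.60 with 35S:ORE1 and 2.18 ± 0.01 in WT (SD, n = 2 each). The change was 6.22 ± 0.26 (SE) on the scale of the deposited values, or 74.7-fold. Neither WT array gave a level above the lowest value, so the WT level may lie lower and the change may be larger. The SE shares its spread over all 4 groups, and was 0.36 when only the protoplast arrays were fitted. After quantile normalization over all 8 arrays, a setting chosen after the data had been seen, the change was 5.25. Within the numbered pairs the differences were 6.64 and 5.80. As a description, the change ranked 28 from the highest among 17388 tested probe sets.

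The share of probe sets that start from the lowest value is given as a description, and nothing is read from it, since AT5G08480 was chosen on this contrast. Of the tested probe sets, 3999 had both WT arrays within 0.1 of the lowest value, and 3755 of these were there with 35S:ORE1 too. Of the 3999, 90 were at least 2-fold higher with 35S:ORE1, and 21, AT5G08480 included, had a change as large as that of AT5G08480. In bulk RNA, fewer expressing cells and less RNA per cell cannot be told apart.

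AT1G80450 was already measurable in WT protoplasts and was higher with 35S:ORE1. Its log2 values were 9.59 and 9.43 in 35S:ORE1 protoplasts, against 8.03 and 7.70 in WT protoplasts. The lowest 35S:ORE1 array was above the highest WT array, as for 10.8% of tested probe sets. The means were 9.51 ± 0.11 with 35S:ORE1 and 7.86 ± 0.23 in WT (SD, n = 2 each), a change of 1.64 ± 0.23 (SE), or 3.12-fold. The pair differences were 1.56 and 1.72, and the change ranked 340 of 17388 from the highest. Both genes rose by the rule that chose them, which used this contrast, so no test is given for them. In all, 522 of 17388 probe sets, 3.00%, rose in protoplasts (limma adjusted p under 0.05), and nothing is read from the count of 2 against it. Another 134 fell, and with each array centred on its median 438 rose and 311 fell.

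**Figure D1:**
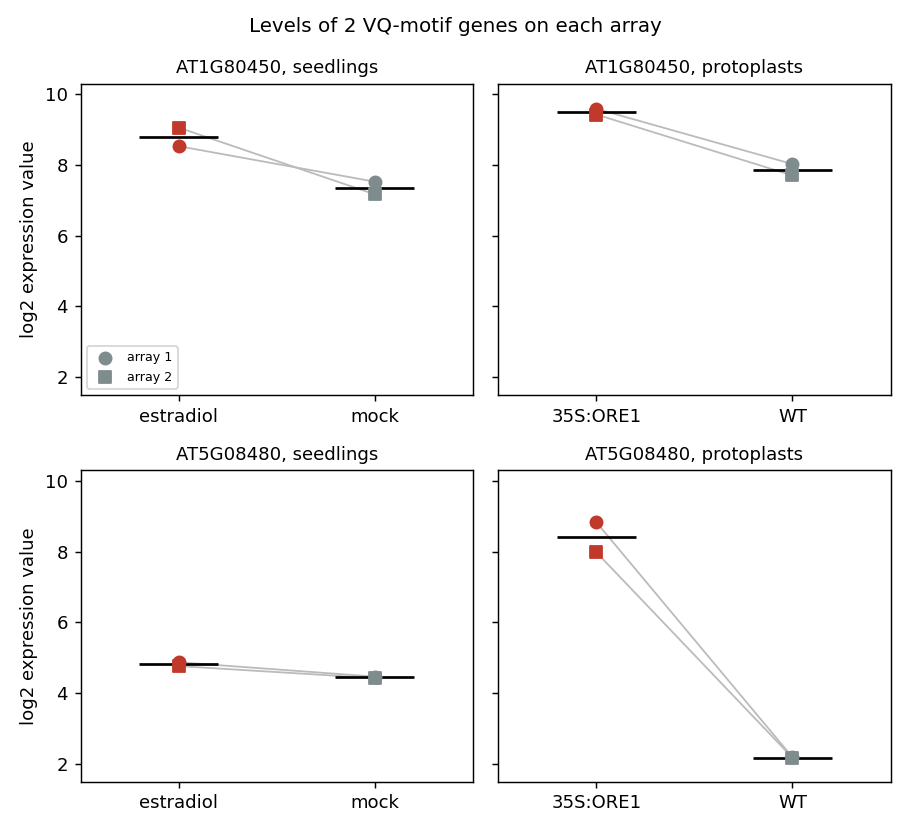
Log2 expression value of AT1G80450 (top) and AT5G08480 (bottom) on each array, with estradiol left of mock for seedlings and 35S:ORE1 left of WT for protoplasts. Circles are arrays numbered 1, squares arrays numbered 2, grey lines join arrays of the same number, and black bars are group means. AT1G80450 is higher in the estradiol and 35S:ORE1 arrays, and AT5G08480 lies at 8.83 and 7.98 with 35S:ORE1 against 2.19 and 2.18 in WT protoplasts. The values of the 2 systems are on different scales.

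The 2 genes were chosen by their protoplast change, so the seedling comparison was tested. Earlier results of these data were known at that choice, so the test may not be wholly independent of it. AT1G80450 was higher on both estradiol arrays, though it did not pass the test over all probe sets. Its log2 values were 8.53 and 9.06 with estradiol, against 7.53 and 7.17 with mock treatment, so the groups did not overlap. Non-overlap in this direction was frequent, at 18.6% of tested probe sets. The means were 8.79 ± 0.37 with estradiol and 7.35 ± 0.25 with mock (SD, n = 2 each). The change of 1.44 ± 0.23 (SE) is 2.72-fold, with a 95% interval of 0.89 to 2.00 on the log2 scale before any adjustment (limma adjusted p = 0.475, unadjusted p = 0.000657). It was 19 from the highest of 17388 changes in seedlings. The pair differences of 1.00 and 1.89 lay further apart than those in protoplasts.

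One probe set passed the same test in seedlings, or 0.00575% of those tested, and it was neither of the 2 genes. Blocking on the replicate number gave AT1G80450 an adjusted p of 0.217. It was 0.232 without estradiol replicate 1 and 1.00 without mock replicate 2, so no setting called it. After the same quantile normalization the change was 2.12 (adjusted p = 0.238).

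AT5G08480 was low in seedlings under both treatments. Its log2 values were 4.88 and 4.77 with estradiol, against 4.47 and 4.43 with mock. The groups did not overlap, as for 18.6% of tested probe sets in this direction, and the gap was small. None of its seedling values reached log2 5, the limit for testing, which the probe set met only through the 35S:ORE1 protoplast arrays. Its seedling p-values and rank are therefore given as a description, and nothing is read from them. The means were 4.82 ± 0.08 with estradiol and 4.45 ± 0.03 with mock (SD, n = 2 each). The change was 0.37 ± 0.26 (SE), or 1.29-fold, with a 95% interval of -0.27 to 1.01 (limma adjusted p = 1.00, unadjusted p = 0.205). All 4 groups share 1 estimate of spread, so this SE carries the wide 35S:ORE1 spread of 0.60. When only the 4 seedling arrays were fitted, the change was 0.37 ± 0.12 (unadjusted p = 0.0326, limma adjusted p = 1.00). It was 598 from the highest of the seedling changes.

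Side by side, AT1G80450 differed by 1.44 in seedlings and 1.64 in protoplasts. AT5G08480 differed by 0.37 in seedlings and 6.22 in protoplasts, where both WT arrays were at the lowest value. The difference between systems was not tested for either gene, because the protoplast change chose them. Tissue, age, time, the way of raising ORE1 and the scale of the values all differ between the systems and cannot be told apart. After quantile normalization over all 8 arrays, chosen after the data had been seen, AT1G80450 differed by 2.12 in seedlings and 1.34 in protoplasts. The order of its changes thus depended on the scaling. With the same normalization AT5G08480 differed by 0.17 in seedlings and 5.25 in protoplasts. All 4 listed mesophyll markers had lower means with 35S:ORE1 in protoplasts, by -0.61 to -0.33 with a median of -0.43, against 0.00 for all tested probe sets, and none passed. This 0.00, here and below, counts the many probe sets with equal values in the same-numbered protoplast arrays. In seedlings none of the 4 mesophyll markers passed (changes of -0.24 to -0.05), nor did any of the 4 other markers (-0.40 to 0.10). The lowest of these changes was that of GC1, at 9.86 and 10.14 with estradiol and 10.37 and 10.44 with mock (limma unadjusted p = 0.021). Its groups did not overlap, as for 13.9% of tested probe sets in this direction. The part of these markers in the results was not tested.

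**Figure D2:**
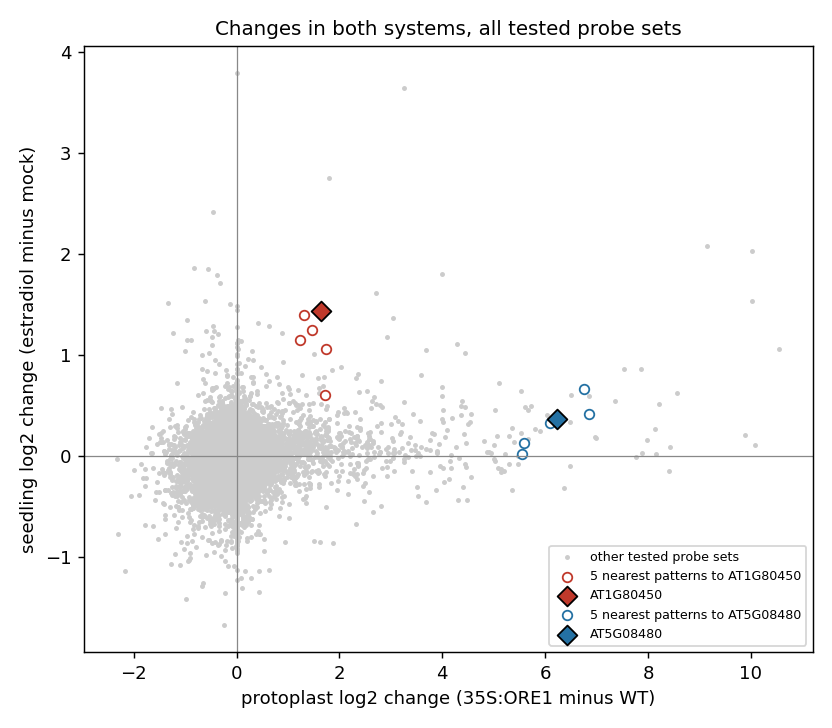
Log2 change in protoplasts (35S:ORE1 minus WT, horizontal) against log2 change in seedlings (estradiol minus mock, vertical) for the 17388 tested probe sets. Diamonds are AT1G80450 (1.64, 1.44) and AT5G08480 (6.22, 0.37), and open circles are the 5 genes with the nearest pattern to each. AT1G80450 lies high on both axes, whereas AT5G08480 lies far along the protoplast axis only.

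No other tested gene of the VQ family was called higher in protoplasts. With 10 genes and a share of 3.00% over all tested probe sets, nothing is read from this. The family list was written from general knowledge of the family, and the reference gene table names only some of its genes as VQ proteins. It holds 33 genes, 15 of which have a listed probe set, and 10 of the 13 others reached the limit for testing. Of these 10, AT1G32610, IKU1, AT3G18360, AT4G20000 and AT5G65170 reached log2 5 on no protoplast array. They met the limit through seedling arrays alone, so nothing is read from their protoplast changes. The protoplast counts and median that follow include them. In protoplasts none of the 10 rose and 1 fell, against 3.00% and 0.771% of all tested probe sets. Their median change was -0.20, against 0.00 for all tested probe sets, with 7 lower means and 3 equal means. At an unadjusted p under 0.05 there were 3, all lower (AT4G15120, AT5G46780 and AT1G78410), against 12.2% of all tested probe sets in either direction. In seedlings none passed in either direction, and at an unadjusted p under 0.05 there was 1, against 4.13% of all. Their seedling median was -0.08, against 0.02 for all.

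The VQ gene that fell in protoplasts was AT4G15120. Its log2 values were 8.09 and 8.18 in 35S:ORE1 protoplasts, against 9.52 and 9.25 in WT protoplasts. The groups were well apart, by more than the spread within either. Groups did not overlap in this direction for 12.6% of tested probe sets. The change was -1.25 ± 0.24 (SE, n = 2 each; limma adjusted p = 0.0465), or 2.38-fold lower. The call rests on all arrays, since the adjusted p was 0.0585 to 0.202 without any 1 of the 8, 0.0654 with no filter on low values and 0.113 when only the protoplast arrays were fitted. In seedlings AT4G15120 had 6.09 and 5.55 with estradiol, against 5.98 and 5.53 with mock, a change of 0.07 ± 0.24. The difference between the systems did not pass (1.32, limma adjusted p = 0.203).

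AT5G46780 had lower means in both systems without passing in either. It measured 8.32 and 8.47 in 35S:ORE1 protoplasts, against 9.17 and 8.96 in WT protoplasts (-0.68 ± 0.17, limma adjusted p = 0.118). In seedlings it measured 8.71 and 9.04 with estradiol, against 9.23 and 9.49 with mock (-0.49 ± 0.17, limma adjusted p = 1.00, unadjusted p = 0.0292). It is the 1 other VQ gene under an unadjusted p of 0.05 in seedlings. Its groups did not overlap in either system, as for 12.6% of tested probe sets in this direction in protoplasts and 13.9% in seedlings.

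AT1G78410 was unsteady in protoplasts. It measured 4.19 and 5.25 with 35S:ORE1, against 5.53 and 5.59 in WT (-0.84 ± 0.32, limma adjusted p = 0.356). Without 35S:ORE1 replicate 2 the change was -1.37 and passed (adjusted p = 0.0158). The VQ gene AT2G22880 was high and steady, with 11.33 and 11.64 in 35S:ORE1 protoplasts and 11.68 and 11.67 in WT protoplasts (-0.19 ± 0.21).

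The other VQ genes showed little. IKU1, also called HAIKU1, which is known to act with a WRKY factor in seed growth, changed by -0.03 ± 0.32 in protoplasts and -0.10 ± 0.32 in seedlings. AT3G56880 (-0.21 ± 0.45) and AT5G65170 (-0.50 ± 0.41) did not pass in protoplasts, nor did they in seedlings (-0.23 ± 0.45 and -0.25 ± 0.41). AT1G32610, AT3G18360 and AT4G20000 had equal group means in protoplasts and changes of -0.06 to 0.14 in seedlings. AT1G21320, AT2G42140 and AT3G58000 stayed under the limit for testing. Of the 13 other VQ genes, 4 were within 0.1 of the lowest value on all 4 protoplast arrays. A fall, or a rise that stays below that value, cannot be measured there.

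**Figure D3:**
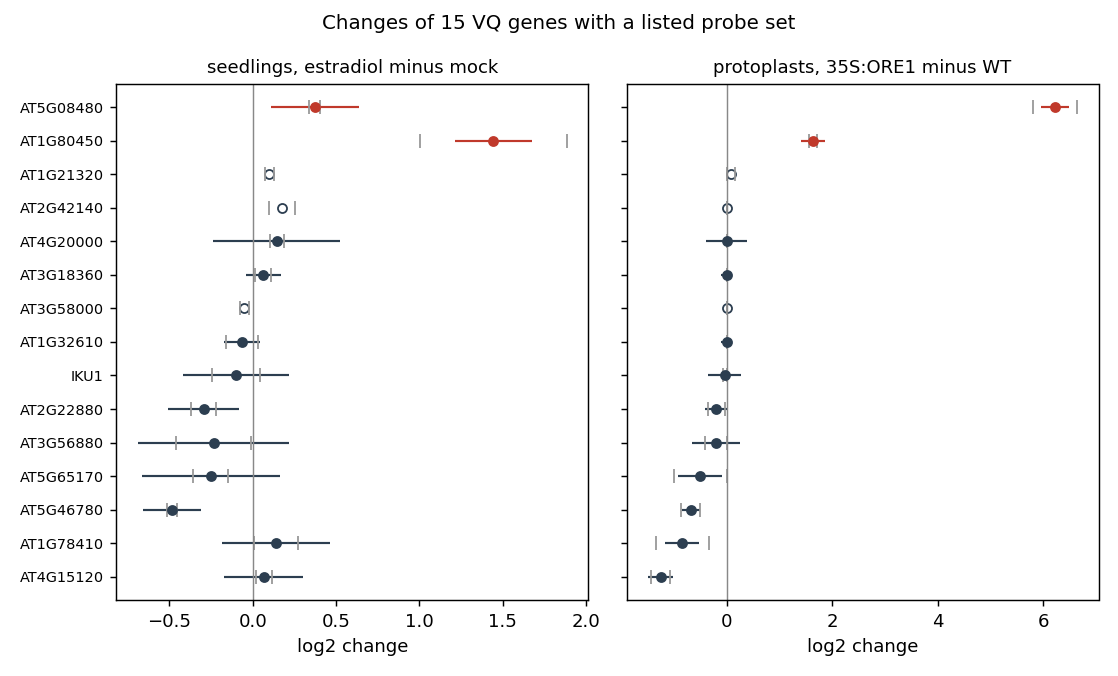
Log2 change of the 15 VQ genes with a listed probe set in seedlings (left, estradiol minus mock) and protoplasts (right, 35S:ORE1 minus WT), on separate horizontal scales. Points are differences of group means with the SE of the fit (n = 2 arrays per group), grey ticks are the differences within the numbered pairs, and open points are genes under the limit for testing. AT5G08480 and AT1G80450, in red, are the genes chosen for their protoplast rise, and AT4G15120 is lowest in protoplasts at -1.25.

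WRKY factors are the known partners of VQ proteins, and the few of their genes that were tested gave no call. Nothing is read from this about the family. Of 72 WRKY genes in the reference table, 7 have a listed probe set and 6 were tested. None passed in either system (limma adjusted p = 1.00 for each; none had an unadjusted p under 0.05). The median change was -0.08 in protoplasts and -0.09 in seedlings, against 0.00 and 0.02 for all tested probe sets. WRKY6, known from senescing leaves, measured 11.73 and 11.98 in 35S:ORE1 protoplasts and 11.84 and 11.98 in WT protoplasts. WRKY53, a known regulator of senescence, was at the lowest value on all protoplast arrays and changed by -0.23 ± 0.12 in seedlings. WRKY22, known from defence, had the largest seedling difference, 0.50 ± 0.42, with 9.16 and 10.45 under estradiol and 9.02 and 9.59 under mock.

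WRKY47 (-0.39 ± 0.57), ZAP1, also called WRKY1 (-0.18 ± 0.17), and WRKY20 (-0.11 ± 0.28) did not pass in protoplasts. In seedlings their differences were 0.42 ± 0.57, -0.12 ± 0.17 and -0.06 ± 0.28. WRKY42 was at the lowest value on the protoplast arrays and was not tested. None of the 10 MAP kinase cascade genes listed has a listed probe set, though the array may hold probe sets for them that were not matched. Of 6 further genes listed for a link to VQ proteins, IKU2 alone has a listed probe set, and it was under the limit for testing.

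The genes with patterns most like each VQ gene were found among tested probe sets with 1 gene, by Euclidean distance over the 8 arrays after the mean of each system was taken off. For AT1G80450 the nearest were AT1G71530, AT1G74010, AT1G02470, AT2G31945 and AT2G28200, at distances of 0.56 to 0.95 (log2 units) and with Pearson's r of 0.911 to 0.987. AT1G71530 measured 5.46 and 5.17 in 35S:ORE1 protoplasts, against 4.38 and 3.77 in WT protoplasts. In seedlings it measured 5.54 and 5.90 with estradiol, against 4.69 and 4.44 with mock. All 5 had higher means in both systems, with protoplast changes of 1.24 to 1.74 and seedling changes of 0.61 to 1.40. They were picked for likeness on these same 8 arrays, so the shared direction follows from the choice. By correlation in place of distance, 2 of the 5 remained among the nearest, AT1G71530 and AT1G74010.

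For AT5G08480 the nearest were AT3G10590, AT4G34320, AT5G38070, the vacuolar processing enzyme gene ALPHA-VPE and AT1G72790, at distances of 0.67 to 0.79 and with r of 0.994 to 0.998. In the first 4 of these, as in AT5G08480, both WT arrays were within 0.1 of the lowest value. AT3G10590 measured 8.27 and 8.30 with 35S:ORE1, against 2.21 and 2.18 in WT, and ALPHA-VPE 9.23 and 8.84 with 35S:ORE1, against 2.19 and 2.18 in WT. The protoplast changes of the 5 were 5.56 to 6.85 and the seedling changes 0.02 to 0.67. Here too the likeness follows from picking the genes on the same arrays. By correlation, 1 of the 5, AT5G38070, remained among the nearest.

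**Figure D4:**
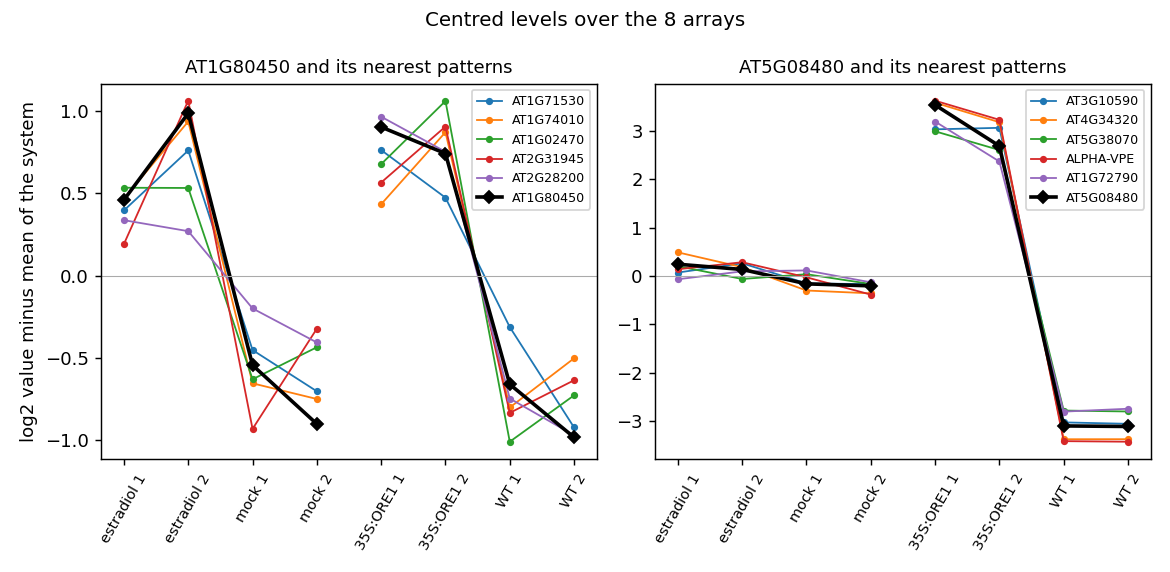
Log2 value minus the mean of the 4 arrays of the same system (vertical) on each of the 8 arrays (horizontal) for AT1G80450 (left, black) and AT5G08480 (right, black) and the 5 genes nearest to each. Lines join arrays of a system for reading only. By the way they were picked, the genes near AT1G80450 are higher in both the estradiol and the 35S:ORE1 arrays. Likewise, those near AT5G08480 differ mainly between 35S:ORE1 and WT.

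None of the nearest listed chromosomal neighbours passed the test in either system in the fit without a block. In the order of the TAIR10.1 reference table, the nearest 2 listed genes on either side were taken for each. Around AT1G80450, with 4 to 9 genes lying between, AT1G80400, AT1G80380, AT1G80500 and AT1G80510 changed by -0.42 to 0.46 in protoplasts and -0.09 to 0.16 in seedlings. Around AT5G08480, with 1 to 3 genes lying between, AT5G08460, AT5G08440, AT5G08500 and AT5G08510 changed by -0.06 to 0.82 in protoplasts and -0.12 to 0.05 in seedlings. The lowest limma adjusted p of the 8 was 0.162. AT5G08500 measured 8.40 and 8.90 with 35S:ORE1, against 7.75 and 8.44 in WT, and its change of 0.56 passed once replicate number was blocked (adjusted p = 0.0377). AT5G08460, separated from AT5G08480 by 1 gene, was at the lowest value on all 4 protoplast arrays. AT5G08510 had 5.36 and 6.07 with 35S:ORE1, against 5.02 and 4.77 in WT, and without 35S:ORE1 replicate 1 its change of 1.17 passed (adjusted p = 0.0400).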

How the data were processed

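RNA levels came from 8 Affymetrix arrays, grouped by the sample titles into 4 groups of 2. The authors deposited log2 expression values per probe set, made with GCRMA and RMA, per the submitters' processing notes, which give no version and no role for either. Probe sets were named through the platform's probe table and the TAIR10.1 gene table: 13436 probe sets with 1 gene matched a locus, giving 13286 genes, and the probe set with the highest mean represents a gene. Only these 13436 of the 22810 probe sets count as listed, so a gene without one may still be on the array. The 2 genes and the gene lists were chosen with earlier results of these data known.

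Probe sets that were not controls (22746 of 22810) and reached log2 5 on at least 2 arrays, 17388 in all, were fitted with limma 3.58.1 in R 4.3.3 (4 group means without a block, eBayes). Tests were two-sided, and calls were made at a Benjamini-Hochberg adjusted p under 0.05. The fit has 4 residual degrees of freedom, and the prior adds 2.25. The script was tested on simulated data. The number of arrays limits the precision. An exact permutation test of 2 against 2 arrays cannot pass the threshold and was not used.

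Named genes were the 2 chosen, every other VQ gene with a listed probe set, up to 4 genes per other list and comparison by moderated t, the 5 nearest patterns and the nearest 2 listed neighbours on either side. WRKY42 and IKU2 were added after their values were seen. Alternatives were the replicate number as a block, 3 other scalings, 2 other filters, a trend in the spread, a fit to each system alone and leaving out each array. The planned comparison of protein and promoter sequences was not made here.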

Additional observations from a re-analysis of the deposited data

How the results depend on the processing

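AT1G80450 in seedlings kept its direction and stayed short of the threshold under the 8 other settings (1.42 to 2.12, adjusted p 0.217 to 1.00) and without any 1 array (1.18 to 1.71, adjusted p 0.232 to 1.00). So did AT5G08480 (0.17 to 0.37, adjusted p 0.462 to 1.00, and 0.32 to 0.43). In protoplasts, quantile normalization over all 8 arrays, added after seeing the data, moved AT1G80450 to 1.34 and AT5G08480 to 5.25. Without any 1 array these changes ranged over 1.48 to 1.80 and 5.80 to 6.65. The number of probe sets called in protoplasts, 656 in the fit as reported, was 1343 with the replicate block, 373 after quantile normalization over all 8 arrays, 145 when only the protoplast arrays were fitted and 376 to 528 without any 1 array. The share of higher calls, 79.6%, was 58.5% with median-centred arrays, where the median change of all probe sets was -0.17, and 61.1% with the block. It was 93.1% when only the protoplast arrays were fitted. In seedlings the 1 call became 3 after quantile normalization over all 8 arrays, and 0 (limma) with the replicate block, with a trend in the spread, with the seedling arrays alone and without any 1 array. The unadjusted count, 718 of 17388 (4.13%), is from the fit as reported.

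The 1 VQ gene called in protoplasts, AT4G15120, passed with the replicate block (adjusted p = 0.0186). The count was 0 with no filter on low values, with the protoplast arrays alone and, without any 1 array, 0 to 1. The 1 there was AT1G78410 without 35S:ORE1 replicate 2, where its difference between the systems also passed (1.51, adjusted p = 0.0451), so that this test gave 0 to 1 calls. The neighbour AT5G08500 (0.56) passed in protoplasts with the replicate block (adjusted p = 0.0377). Arrays of the same number deviated together from the group means (r over probe sets of 0.656 for seedlings, 0.787 for protoplasts). In protoplasts the equal values within numbered pairs also tie the arrays by number, whereas the labels state no pairing.

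Values that did not pass changed sign under some settings, without a call. Centring gave WRKY22 -0.022 and AT1G80510 -0.074 in protoplasts and AT5G08510 -0.020 in seedlings. For AT5G08510, quantile normalization gave -0.0088 within systems and -0.011 over all arrays. Without any 1 array, seedling changes ranged over -0.23 to 0.027 for IKU1, -0.21 to 0.34 for AT4G15120, -0.33 to 0.61 for AT4G20000, -0.14 to 1.14 for WRKY22, -0.15 to 0.033 for WRKY20, -0.26 to 0.081 for AT1G80500, -0.35 to 0.21 for AT5G08460, -0.28 to 0.038 for AT5G08440, -0.040 to 0.14 for AT5G08500 and -0.11 to 0.12 for AT5G08510. Protoplast changes ranged over -0.41 to 0.35 for IKU1, -0.84 to 0.42 for AT3G56880, -1.17 to 0.17 for AT5G65170, -0.18 to 0.068 for WRKY6, -0.41 to 0.049 for ZAP1, -1.13 to 0.35 for WRKY47, -0.48 to 0.26 for WRKY20, -0.096 to 0.29 for AT1G80510 and -0.40 to 0.27 for AT5G08440. The cause was not tested. Values at the lowest value of a protoplast array carry no measurable level.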
